A study of Homo sapiens with 6 samples.

Results

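Interferon-stimulated genes are the antiviral and antimicrobial programme that a cell switches on when interferon binds its surface receptors. Receptor-bound JAK kinases phosphorylate transcription factors such as STAT2, which joins IRF9 in a complex that binds the interferon-stimulated response element (ISRE) in the promoters of these genes. The products sense foreign RNA, block viral entry, degrade RNA, halt translation or feed back on the pathway, and airway epithelium is one of the tissues that makes and answers type I and type III interferon. A list of 41 such genes was followed, each matched by its Ensembl ID to a row of a count table with 60892 rows. All 41 had a row, 37 passed the filter on low counts and were tested, RIGI, CMPK2 and RTP4 were too low to test, and IRF9 had no count in any library.

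The cells were BEAS-2B, an immortalised bronchial epithelial line of wild-type genotype, used as a model of airway epithelium. The control group (3 libraries) was kept in medium for 24 hours, and the ZQ group (3 libraries) was kept for the same time with 10 mg/mL of ZQ, Zhenqi Granules, a herbal preparation. Every culture then received methicillin-resistant Staphylococcus aureus (MRSA) at 1 bacterium per cell and was collected 2 hours later, so both groups were infected, and no uninfected group was available for comparison. The series asks what ZQ does to the transcriptome of infected cells, and for this gene group the comparison asks which interferon-stimulated genes were higher or lower with ZQ. No source states separate cultures behind the replicates, so a p-value here weighs only library-to-library spread, which can be technical.

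The response element was read directly in the promoters of the genes whose calls are described below. Promoters from 250 bases before to 50 after the start site were taken from RefSeq (GRCh38.p14) for 33 of the 41 members, and the core of the element (GAAA, any 2 bases, GAAA) was searched on both strands, with overlapping matches allowed. It was found in 23 of these 33 members, or 69.7%, against 4.38% of the 27305 genes with a promoter in the same set. Among members with a promoter it was present in 6 of 6 called higher with ZQ and in 7 of 7 called lower. Genes that went in opposite directions thus carried the same core. It was also present in 9 of 16 members without a call and in 1 of 4 that were not tested. The stretches below end at or before the start site and are shown because they set 4 genes that were higher with ZQ (ISG15, IFITM3, IFI27, ISG20) beside 3 that were lower (IFIT1, SAMD9, PARP14). Each is written 5′ to 3′ on the strand of its gene, and capitals mark the core, which reads TTTC, any 2 bases, TTTC where it lies on the opposite strand.
ISG15, chr1:1013365-1013424, plus strand: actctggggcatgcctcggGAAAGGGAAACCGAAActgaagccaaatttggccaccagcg
IFITM3, chr11:320861-320920, minus strand: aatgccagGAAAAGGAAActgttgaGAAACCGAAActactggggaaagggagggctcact
IFI27, chr14:94110616-94110675, plus strand: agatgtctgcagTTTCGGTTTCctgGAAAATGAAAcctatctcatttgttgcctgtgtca
ISG20, chr15:88638922-88638981, plus strand: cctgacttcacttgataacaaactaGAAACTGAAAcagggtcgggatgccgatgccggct
IFIT1, chr10:89392495-89392554, plus strand: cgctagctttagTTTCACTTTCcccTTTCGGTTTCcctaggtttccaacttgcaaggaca
SAMD9, chr7:93118081-93118140, minus strand: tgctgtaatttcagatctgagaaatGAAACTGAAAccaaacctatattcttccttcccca
PARP14, chr3:122680785-122680838, plus strand: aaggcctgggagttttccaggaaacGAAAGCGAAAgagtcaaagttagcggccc
In ISG15 the 2 matches overlap. The core of the interferon gamma-activated element, written TTC, any 3 bases, GAA and searched the same way, was present in 11 of 33 members (33.3%) and in 9.38% of all genes. A match is only a run of letters and says nothing about binding in these cells.

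The libraries of the groups differed in more than the treatment. Total counts ran from 11665967 to 14699677 in control and from 2064566 to 2451746 in ZQ libraries, and transcripts of the mitochondrial genome took 7.04% to 10.1% of counts in control and 38.4% to 40.7% in ZQ libraries. Olfactory receptor genes, whose products serve the nose, here gauge stray reads. They held 0.164 raw counts per kb of exon in the pooled control libraries and 1.49 in the pooled ZQ libraries. In CPM (counts scaled to a common library size), the densities were 0.00367 per kb in control and 0.261 in ZQ libraries. Summed epithelial markers (7 of 7 with counts in both groups) were 1897 to 3418 CPM in control and 1786 to 2110 in ZQ libraries. CDH1 among them had 6 counts in control and 10 in ZQ libraries. Within that sum KRT7 was called higher (log2 change 1.61 ± 0.20 SE) and KRT8 lower (-1.24 ± 0.23). Mesenchymal markers, which this line also carries, summed to 1493 to 1812 CPM in control and 1495 to 1738 CPM in ZQ libraries, with VIM called higher (1.71 ± 0.12) and FN1 (-3.25 ± 0.20) and CDH2 (-2.49 ± 0.25) called lower. Summed leukocyte markers were 4.24 to 6.04 CPM in control and 8.78 to 20.7 CPM in ZQ libraries, with CD68, LYZ and HLA-DRA at 0 in all. Markers of plasmacytoid dendritic cells, professional interferon producers, summed to at most 0.0684 CPM in control and 3.87 CPM in ZQ libraries, with LILRA4 at 0. The part of these differences in the results below was not tested, except where a value is given. In these bulk samples, fewer cells that use a gene and less RNA of that gene per cell cannot be told apart.

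Interferon-stimulated genes did not move as a block. With ZQ, 6 of the 37 tested members rose (ISG15, IFITM1, IFITM3, ISG20, IFI6 and IFI27) and 9 fell (IFIT1, IFIT2, IFIT3, IFIT5, SAMD9, PARP14, HERC5, USP18 and EPSTI1), where a call needs a Benjamini-Hochberg adjusted p of at most 0.05 over all 12994 tested genes (edgeR, quasi-likelihood). The 15 calls are set against a background of 38.3% of all tested genes called in either direction. The members that rose and fell are 16.2% and 24.3% of the tested members, while over all tested genes 19.3% were called higher and 19% lower, so neither share stood far from the background. The median log2 change of the tested members was -0.59, against 0.03 for all tested genes. Every ZQ library lay below every control library in 17 members (45.9%, background 28%) and above in 8 (21.6%, background 25.4%). Without control replicate 1 the number of members that fell was 5, and without ZQ replicate 3 it was 15, while 6 to 7 rose when any single library was left out.

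The call held in all 18 alternative analyses for 7 of the 15 called members, namely IFI27, IFITM3 and ISG20, which were higher, and IFIT2, IFIT3, SAMD9 and PARP14, which were lower. No member passed in the direction opposite to its reported change in any of them. One alternative bears on this gene group more than the others, because the changes of its members went with the GC content and length of their transcripts. The 6 genes that rose have a GC content of 52.5% to 63.4% and a longest coding transcript of 725 to 1856 bases, and the 9 that fell 36.0% to 51.6% and 2129 to 7915 bases. At or above the members' median GC of 47.0%, 6 of 19 rose and 1 fell, and below it 0 of 18 rose and 8 fell. The same cut over all tested protein-coding genes gave 26.6% higher and 9.26% lower above it, and 6.93% higher and 34.5% lower below it. Across the 37 members the log2 change had a Spearman rho of 0.67 with GC content and of -0.54 with length, and across 11514 tested protein-coding genes 0.50 and -0.12, where genes share libraries and are not replicates. With an offset per library for GC content and length, rho for the members was 0.12 and -0.23, 4 members were higher (background 17.3%) and 6 lower (background 15.6%), and 8 of the 15 calls held with their direction. The offsets came from curves of each library's values on GC content and length, fitted with no term for treatment. A smaller rho was thus largely fixed in advance, and a ZQ effect that goes with GC content or length would be removed as well. The part of GC content and length in these differences was not tested, and the offsets cannot decide it.

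**Figure D1:**
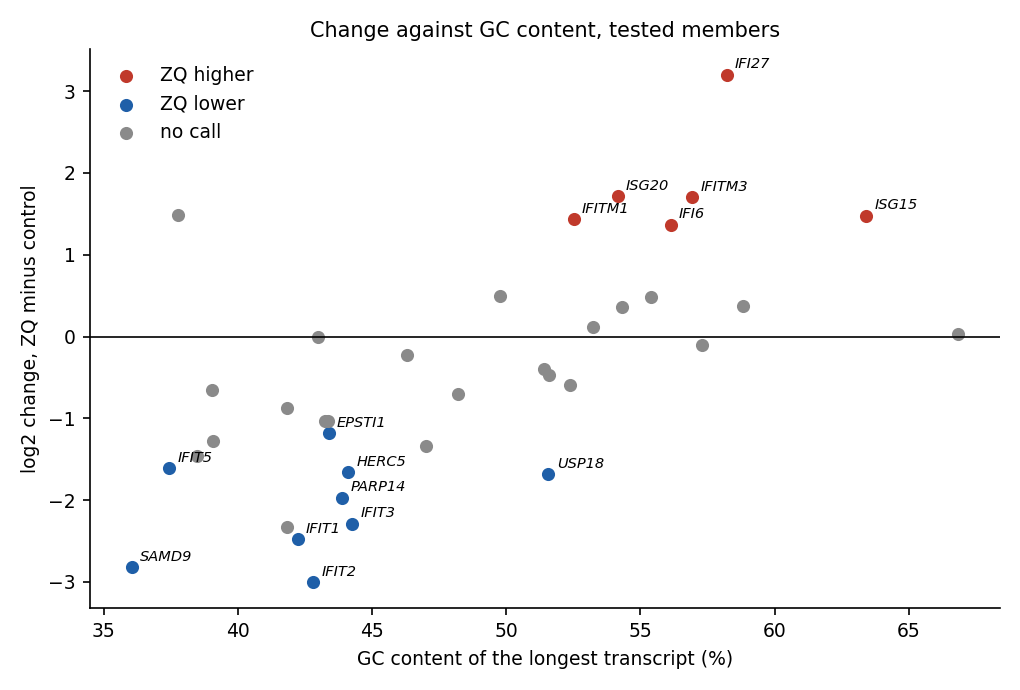
Log2 change (ZQ minus control) of the 37 tested members against the GC content of the longest transcript in percent, coloured by call, with called genes named. All 6 genes that rose lie above 52% GC on the right, and 8 of the 9 that fell lie on the left, with USP18 at 51.6% as the exception.

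In the ZQ libraries, 3 genes with short transcripts made up most of the summed level of the group, and in the control libraries they did not. IFITM3, ISG15 and IFI27, the most abundant members with ZQ and picked for that, together held 682, 625 and 783 CPM in control replicates 1 to 3 and 2697, 2812 and 2539 CPM in ZQ replicates 1 to 3. Their share of the summed member CPM was 33.9% to 37.0% in control and 73.0% to 75.3% in ZQ libraries. The remaining members summed to 1308, 1219 and 1334 CPM in control and to 883, 978 and 937 CPM in ZQ libraries. Because the 3 genes were picked by their level with ZQ, the choice itself favours a rise in their sum and a fall in the rest, and the split is only a description.

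**Figure D2:**
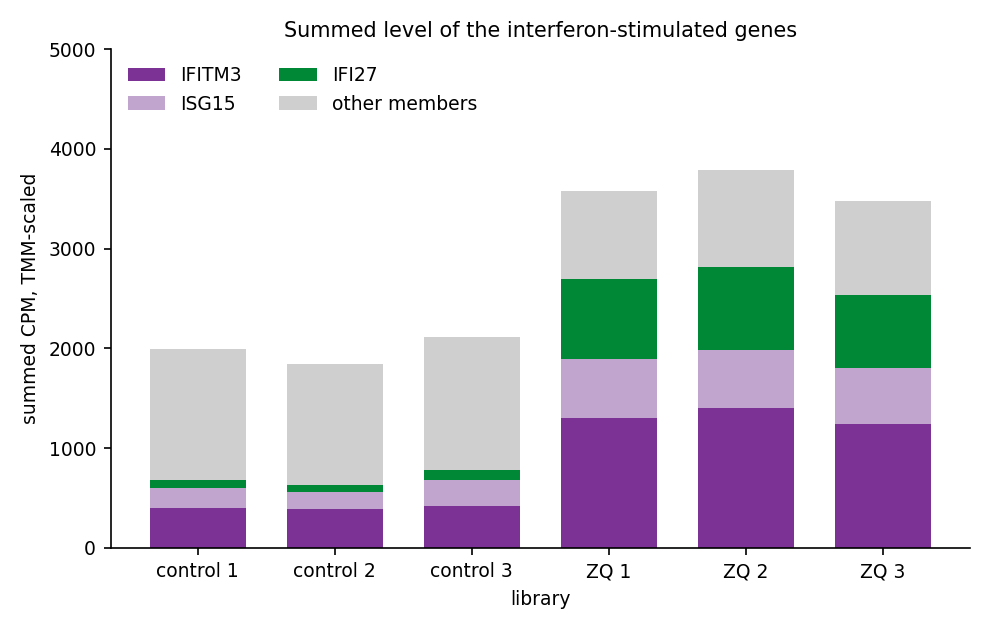
Summed CPM (TMM-scaled) of the 41 members in each library, stacked for IFITM3, ISG15, IFI27 and the other members. Control libraries reach 1844 to 2117 CPM and ZQ libraries 3476 to 3789 CPM, while the grey part for the other members is smaller with ZQ.

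Per kb of annotated exon, the order of levels in control cells began with IFITM3 (298 ± 12.3 CPM per kb, SD, n = 3) and ISG15 (222 ± 46.3), followed by BST2 (77.4 ± 2.19), IFITM2 (61.4 ± 4.79) and IFIT3 (48.7 ± 9.06). IFITM3 and ISG15 stood above the rest by more than their spread, whereas IFITM2 and IFIT3 came within about their combined SDs of each other. With ZQ the first places were held by IFITM3 (974 ± 62.5 CPM per kb), ISG15 (620 ± 15.8) and IFI27 (190 ± 11.3), and then by IFI6 (89.9 ± 8.35), IFITM2 (85.8 ± 10.5) and BST2 (71.7 ± 19.0), which lay within their spread of one another. IFI27 went from place 10 of 40 to place 3, and IFIT2 from place 8 to place 16. Counted per kb of the longest coding transcript instead, a choice made after seeing the data, IFI27 stood at place 3 in control cells (118 CPM per kb) and at place 2 with ZQ (1085 CPM per kb). RIGI and CMPK2 were at the end of the order in control cells, at 0.146 and 0.0143 CPM per kb of exon.

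Membrane restriction factors held the most abundant member. The IFITM proteins sit in endosomal and plasma membranes and hinder the fusion of viral envelopes, and BST2 (tetherin) holds budding virions at the cell surface. IFITM3 (chromosome 11, 319669 to 327537, GRCh38) stood at 399, 387 and 420 CPM in the control libraries and at 1297, 1404 and 1238 CPM in the ZQ libraries. It rose by 1.71 ± 0.11 on the log2 scale (± SE here and for all log2 changes below, edgeR adjusted p = 7.5e-06), with groups far apart and closely spaced replicates, and by 0.58 with the GC and length offsets, where the call held. IFITM1 stood at 21.7, 21.7 and 26.2 CPM in control and 65.3, 53.7 and 69.2 CPM in ZQ libraries, a rise of 1.43 ± 0.28 on the log2 scale (edgeR adjusted p = 0.0029) that was 0.67 and lost its call with the offsets. Its exons share 32.5% of their bases with those of IFITM2 on the same strand, so reads may have been split between them. IFITM2 itself was 95.3, 87.2 and 102 CPM in control and 128, 150 and 119 CPM in ZQ libraries. No ZQ library of IFITM2 overlapped the control libraries, yet the change of 0.48 ± 0.19 missed the threshold (edgeR adjusted p = 0.065), and it was -0.45 with the offsets. BST2 was 89.0, 84.1 and 86.9 CPM in control and 56.5, 97.2 and 87.1 CPM in ZQ libraries, so the groups overlapped (log2 change -0.11 ± 0.24, edgeR adjusted p = 0.75). With the offsets its change was -1.08 and was called lower.

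Of the mitochondrial and death-related members, IFI27 had the largest rise of all 37 tested members. IFI27 encodes a small hydrophobic protein of the mitochondrial and nuclear membranes that sensitises cells to apoptosis, and IFI6 is a related protein that restrains it. IFI27 (chromosome 14, 94104836 to 94116698) had 81.4, 68.3 and 107 CPM in control libraries and 802, 823 and 734 CPM in ZQ libraries. The raw counts behind these values overlapped, at 1191, 1176 and 1387 in control and 1463, 1702 and 1314 in the shallower ZQ libraries, so the separation is one of share of the library. Its rise of 3.20 ± 0.19 on the log2 scale (edgeR adjusted p = 3.4e-06) was 1.89 with the offsets. IFI6 had 27.0, 37.6 and 25.8 CPM in control libraries and 73.5, 86.1 and 73.7 CPM in ZQ libraries, without overlap, and rose by 1.37 ± 0.27 on the log2 scale (edgeR adjusted p = 0.0029). The IFI6 value was 0.34 with the offsets and lost its call. XAF1, an antagonist of the apoptosis inhibitor XIAP, was low in both groups, at 1.74 ± 0.51 CPM in control and 1.71 ± 1.52 CPM with ZQ (SD, n = 3 each).

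The ISG15 system split. ISG15 is a ubiquitin-like modifier, HERC5 is the ligase that attaches it to proteins, HERC6 is a close relative of HERC5, and USP18 removes ISG15 and also shuts off signalling at the interferon receptor. ISG15 (chromosome 1, 1001138 to 1014540) was at 201, 170 and 256 CPM in control libraries and at 597, 584 and 568 CPM in ZQ libraries. All ZQ libraries were above all control libraries, and ISG15 rose by 1.48 ± 0.17 on the log2 scale (edgeR adjusted p = 0.00014). Once offsets for GC content and length were included, the value reversed to -0.38 and the call ended, and ISG15 has the highest GC content of the 15 called members (63.4%). HERC5 was at 27.0, 31.4 and 19.5 CPM in control and at 12.1, 9.19 and 3.35 CPM in ZQ libraries, a change of -1.66 ± 0.51 log2 units (edgeR adjusted p = 0.026). USP18 was at 12.4, 13.6 and 19.3 CPM in control and at 4.94, 6.29 and 2.79 CPM in ZQ libraries, a change of -1.68 ± 0.52 log2 units (edgeR adjusted p = 0.028). The ligase and the protease thus fell while the modifier rose, but the calls of HERC5 and USP18 each held in only 11 of 18 alternatives. Both ended without any 1 of the 3 control replicates (-1.42 to -1.69 for HERC5, -1.33 to -1.69 for USP18), under upper-quartile scaling (-1.20 and -1.24) and with thinned controls (-1.35 and -1.47). HERC5 also lost its call with the offsets (-1.07), whereas USP18 kept it (-1.73). HERC6 was at 15.5, 14.2 and 15.1 CPM in control and at 14.8, 5.32 and 18.4 CPM in ZQ libraries, with overlap (log2 change -0.22 ± 0.51, edgeR adjusted p = 0.75).

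The activating and conjugating enzymes of the same system, UBA7 and UBE2L6, are not members. UBA7 fell with a change of -1.82 ± 0.63 log2 units (edgeR adjusted p = 0.044), from 12.2 ± 5.18 to 3.41 ± 2.15 CPM (SD, n = 3 each). That call ended without control replicate 1 (-1.80), control replicate 2 (-1.34), control replicate 3 (-1.88), ZQ replicate 1 (-1.58) or ZQ replicate 3 (-1.78). UBE2L6 stood at 79.2 ± 6.03 and 109 ± 27.4 CPM, a change of 0.47 ± 0.23 without a call (edgeR adjusted p = 0.14).

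The IFIT family was the only role group of more than 1 tested gene in which every member fell, with 4 of 4 (background 19%). The IFIT genes form a cluster on chromosome 10, from IFIT2 (89283694 to 89309276) through IFIT3 (89327894 to 89340971) and IFIT1 (89392546 to 89406486) to IFIT5 (89414586 to 89421001), and their proteins bind foreign RNA, in the case of IFIT1 uncapped or incompletely methylated 5′ ends, and block its translation. IFIT2 had 106, 88.8 and 125 CPM in control libraries and 13.7, 22.3 and 3.35 CPM in ZQ libraries, a change of -3.01 ± 0.49 log2 units (edgeR adjusted p = 0.00093), the largest fall among the tested members. IFIT3, the partner that stabilises IFIT1, had 136, 102 and 148 CPM in control libraries and 28.5, 32.4 and 17.9 CPM in ZQ libraries, a change of -2.29 ± 0.29 log2 units (edgeR adjusted p = 0.00026). Neither gene overlapped between the groups, and with the offsets both calls held at -2.25 and -1.62. IFIT1 had 80.0, 65.8 and 80.5 CPM in control libraries and 31.3, 1.94 and 7.82 CPM in ZQ libraries, a change of -2.48 ± 0.67 log2 units (edgeR adjusted p = 0.015). The ZQ libraries of IFIT1 differed widely, with 57 of its 75 ZQ counts in replicate 1, and without that library the change was -4.08. With the offsets IFIT1 stood at -1.75 and missed the threshold (edgeR adjusted p = 0.067). IFIT5 had 82.1, 65.5 and 70.3 CPM in control libraries and 35.1, 11.1 and 25.7 CPM in ZQ libraries, a change of -1.61 ± 0.39 log2 units (edgeR adjusted p = 0.0085). That call ended without control replicate 1 (-1.37) and with the offsets (-0.35), and IFIT5 is the member of this family with the lowest GC content (37.4%).

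**Figure D3:**
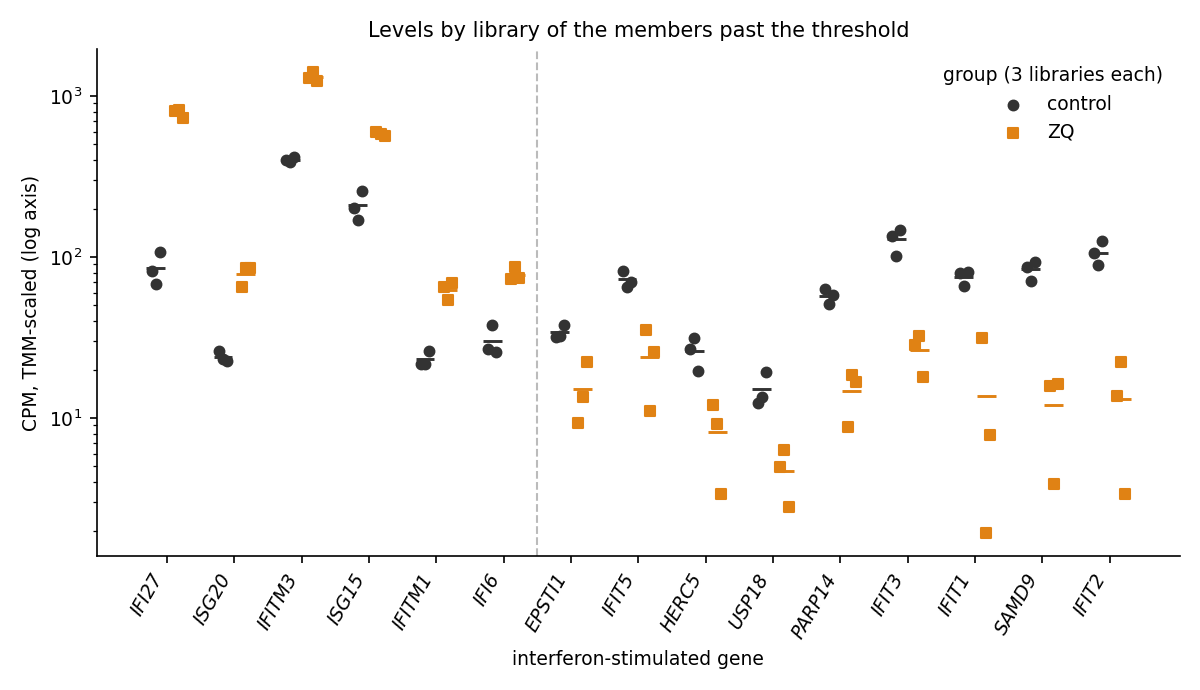
CPM (TMM-scaled, log axis) of the 15 called members in each of the 3 control and 3 ZQ libraries, with bars at the group means and a dashed line between the 6 that rose and the 9 that fell. No called gene overlaps between groups, and the ZQ libraries of the genes that fell spread more widely than those of the genes that rose, as in IFIT1 with 1.94 to 31.3 CPM.

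No member of the OAS family or of the MX GTPases was called. The OAS enzymes make 2′-5′ oligoadenylates that activate RNase L, OASL is the inactive relative that assists RIG-I, and MX1 and MX2 form rings on viral nucleocapsids. OAS1 was at 24.1, 19.8 and 23.5 CPM in control and at 2.74, 10.2 and 28.5 CPM in ZQ libraries. OAS2 was at 17.9, 17.3 and 12.7 CPM in control and at 7.68, 2.42 and 8.93 CPM in ZQ libraries. ZQ replicate 3 was the highest ZQ library for both, and for OAS1 it lay above every control library. Without ZQ replicate 3 both were called lower, OAS1 at -1.87 and OAS2 at -1.77 on the log2 scale, against -0.71 ± 0.64 and -1.34 ± 0.55 with all libraries (edgeR adjusted p = 0.41 and 0.080). OAS3 was at 29.3, 48.7 and 32.0 CPM in control and at 27.97, 57.6 and 55.3 CPM in ZQ libraries, with overlap (log2 change 0.36 ± 0.36, edgeR adjusted p = 0.47). OASL was at 36.2, 36.4 and 34.2 CPM in control and at 25.2, 32.4 and 23.4 CPM in ZQ libraries. Each ZQ library of OASL was a little below the control libraries, and the change of -0.40 ± 0.31 was not called (edgeR adjusted p = 0.34). MX1 was at 36.9, 35.8 and 39.9 CPM in control and at 10.97, 20.8 and 43.0 CPM in ZQ libraries. ZQ replicate 3 of MX1 was again the highest library of all, with a change of -0.59 ± 0.45 log2 units (edgeR adjusted p = 0.33) that became -1.32 and was called lower without it. MX2 was low, at 6.50 ± 1.42 CPM in control and 9.19 ± 2.03 CPM with ZQ (SD, n = 3 each), with no call.

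RNA sensors did not pass the test. RIGI (RIG-I) and IFIH1 (MDA5) are the cytosolic helicases that detect viral RNA, and DDX60 is a related helicase. IFIH1 was at 29.2, 26.3 and 30.3 CPM in control and at 15.4, 8.22 and 18.4 CPM in ZQ libraries. Its groups did not overlap, and its log2 change of -1.03 ± 0.41 missed the threshold (edgeR adjusted p = 0.070), was called without ZQ replicate 3 (-1.38) and was -0.35 with the offsets. DDX60 was at 16.5, 11.6 and 12.1 CPM in control and at 8.78, 10.6 and 6.14 CPM in ZQ libraries, without overlap but with no call (log2 change -0.65 ± 0.47, edgeR adjusted p = 0.30), and its value was 0.37 with the offsets. RIGI held 29 counts over the control libraries and 16 over the ZQ libraries, 12 of them in replicate 1, a ratio of 4.35 with a 95% exact counting interval of 2.21 to 8.28 that covers counting error only. At the density on olfactory receptor genes, its exons would hold 6.47 ZQ counts, or 40.4% of those seen.

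The transcription factors of the pathway showed no call either. STAT2 and IRF9 are partners in the complex that binds the ISRE, IRF7 amplifies interferon production, and IRF1 acts mainly downstream of interferon gamma. STAT2 was at 26.3, 30.6 and 35.1 CPM in control and at 26.3, 28.5 and 11.2 CPM in ZQ libraries (log2 change -0.48 ± 0.41, edgeR adjusted p = 0.39). IRF1 was at 23.0, 40.6 and 27.4 CPM in control and at 62.0, 32.4 and 4.47 CPM in ZQ libraries (log2 change 0.12 ± 0.66, edgeR adjusted p = 0.90). The ZQ libraries of IRF1 lay above, among and below the control libraries, a wider spread than in any control group of these factors. IRF7 was at 7.99 ± 7.12 CPM in control and 8.226 ± 3.997 CPM with ZQ (SD, n = 3 each), and 279 of its 386 control counts lay in control replicate 2. IRF9 was at 0 in all 6 libraries, a count that allows up to 3 per library, equal to 0.174 to 0.231 CPM for the control and 1.45 to 1.67 CPM for the ZQ group. Its exons share 48.4% of their bases with another annotated gene on the same strand (ENSG00000259529), also at 0 in all libraries. The shared bases number 1838, which is also the length of the longest coding transcript of IRF9. Whether the counting left out reads shared by both was not tested. If it did, the limit of 3 counts does not bound the level of IRF9.

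Among nucleotide and nucleic acid enzymes, ISG20 and SAMD9 went in opposite directions and both held in all 18 alternatives. ISG20 is an exonuclease that degrades single-stranded RNA, and SAMD9 and its neighbour SAMD9L on chromosome 7 restrict poxviruses and protein synthesis. ISG20 (chromosome 15, 88636153 to 88656483) had 26.1, 23.1 and 22.7 CPM in control libraries and 65.3, 85.6 and 85.4 CPM in ZQ libraries, and it rose by 1.72 ± 0.27 on the log2 scale (edgeR adjusted p = 0.00075), or by 1.42 with the offsets. SAMD9 (chromosome 7, 93099513 to 93118023) had 87.0, 71.3 and 93.2 CPM in control libraries and 15.9, 3.87 and 16.2 CPM in ZQ libraries. Its log2 change of -2.82 ± 0.45 (edgeR adjusted p = 0.00089) was -1.65 with the offsets. SAMD9L had 19.8, 18.5 and 17.3 CPM in control libraries and 6.03, 0.968 and 13.4 CPM in ZQ libraries, all below the control libraries, but its change of -1.46 ± 0.68 was not called (edgeR adjusted p = 0.12) and was -2.53 and called without ZQ replicate 3, or -0.51 with the offsets. RSAD2 (viperin) and CMPK2, neighbours on chromosome 2 that act on nucleotides, were close to 0. RSAD2 totalled 70 counts in control and 5 in ZQ libraries, where replicate 2 held all 5 (log2 change -0.88 ± 1.04, edgeR adjusted p = 0.53), and it was called lower without that library, with both others at 0. CMPK2 had 3 control counts and 8 ZQ counts, a ratio of 21.0 with a 95% exact counting interval of 5.05 to 123, and 79.9% of its ZQ counts would be reached at the density on olfactory receptor genes.

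The ADP-ribosyltransferases PARP9 and PARP14 sit close together on chromosome 3, and PARP14 fell. PARP14 modifies proteins with single ADP-ribose units, and PARP9 works with DTX3L in antiviral signalling. PARP14 (122680618 to 122730840) was at 63.6, 51.2 and 57.7 CPM in control and at 8.78, 18.4 and 16.7 CPM in ZQ libraries, a change of -1.97 ± 0.36 log2 units (edgeR adjusted p = 0.0018) that was -1.67 with the offsets. PARP9 was at 28.04, 21.9 and 26.4 CPM in control and at 7.13, 15.5 and 14.5 CPM in ZQ libraries, also without overlap. The PARP9 change of -1.04 ± 0.43 missed the threshold (edgeR adjusted p = 0.079) and was called without ZQ replicate 2 (-1.33), with -0.58 under the offsets.

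Of the remaining induced proteins, EPSTI1 was the only one called. IFI35 stabilises signalling partners, IFI44 and IFI44L are cytoplasmic proteins induced late in infection, EPSTI1 is an epithelial and stromal protein, RTP4 is a chaperone of receptor transport and TRIM22 a ubiquitin ligase. EPSTI1 had 32.0, 32.3 and 38.1 CPM in control libraries and 9.32, 13.5 and 22.3 CPM in ZQ libraries, a change of -1.18 ± 0.41 log2 units (edgeR adjusted p = 0.042). This was the least stable of the 15 calls: it held in 6 of 18 alternatives, ended when control replicate 1 (-1.09), 2 (-1.13) or 3 (-0.96) or ZQ replicate 1 (-1.03) or 2 (-1.21) was left out, and was -0.47 with the offsets. IFI35 had 78.5, 68.9 and 71.3 CPM in control libraries and 83.9, 109 and 89.9 CPM in ZQ libraries, without overlap and without a call (log2 change 0.37 ± 0.21, edgeR adjusted p = 0.19), and its value was -0.60 with the offsets. IFI44L had 5.51 ± 1.42 CPM in control and 15.4 ± 12.4 CPM with ZQ (SD, n = 3 each), and its change of 1.49 ± 0.75 was called without ZQ replicate 1 (1.93) and with the offsets (2.63). IFI44 had a change of -1.28 ± 0.56 log2 units (edgeR adjusted p = 0.096) that was called without ZQ replicate 3 (-1.71) and was -0.22 with the offsets. TRIM22 had 480 control counts and 12 ZQ counts, 11 of them in replicate 1, with a change of -2.32 ± 0.94 log2 units (edgeR adjusted p = 0.075) that was -5.40 and called without that library, and -1.39 with the offsets. RTP4 had 41 control counts and 2 ZQ counts, a ratio of 0.385 with a 95% exact counting interval of 0.0451 to 1.48.

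**Figure D4:**
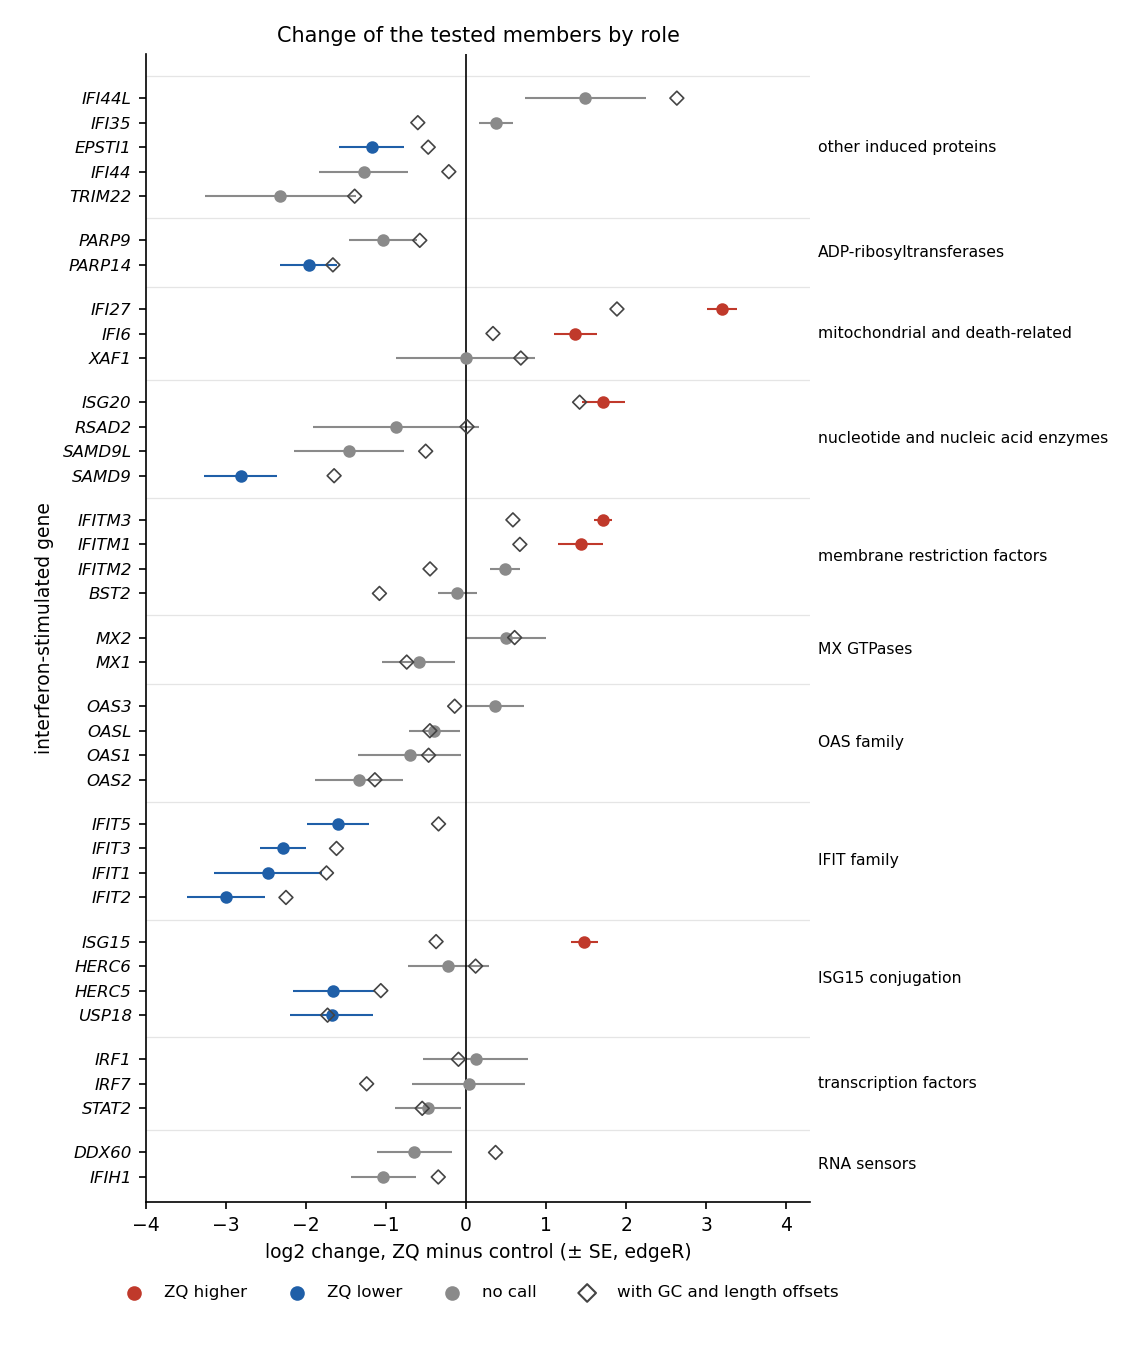
Log2 change (ZQ minus control) of the 37 tested members grouped by role, with filled points and bars for the edgeR estimate ± SE, coloured by call, and open diamonds for the estimate with GC and length offsets. All 4 IFIT genes lie to the left of 0 under both, whereas the diamond of ISG15 lies at -0.38, across 0 from its filled point.

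Low ZQ counts limit the members that fell more than those that rose. Of the 9 that fell, 7 had under 100 counts over the 3 ZQ libraries together. The 99th percentile of olfactory receptor genes in the ZQ libraries was 16.0 counts per kb of exon, and all 6 members that rose and 5 of the 9 that fell stood above it. IFITM3, ISG15 and IFI27 held 5552, 3522 and 1080 ZQ counts per kb. SAMD9 and PARP14 held 9.63 and 8.004 ZQ counts per kb, of which the pooled receptor density would give 15.4% and 18.6%.

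Upstream of these genes, the receptor genes IFNAR1 and IFNGR1 and the kinase gene JAK1 fell, and the kinase gene TYK2 rose. IFNAR1, a chain of the type I interferon receptor, went from 87.7 ± 5.77 to 24.6 ± 20.7 CPM (log2 change -1.84 ± 0.61, edgeR adjusted p = 0.037). Leaving out control replicate 1 (-1.66), 2 (-1.80) or 3 (-1.70), or ZQ replicate 1 (-2.02), ended the IFNAR1 call, as did the offsets (-1.22). IFNGR1, a chain of the interferon gamma receptor, went from 97.3 ± 12.3 to 7.79 ± 12.5 CPM, with 46 of its 48 ZQ counts in replicate 2 (log2 change -3.59 ± 0.88, edgeR adjusted p = 0.0093, or -7.52 without that library), and the call ended with the offsets (-2.41) and in DESeq2. JAK1, the kinase shared by these receptors, went from 196 ± 24.1 to 78.6 ± 43.3 CPM (log2 change -1.32 ± 0.36, edgeR adjusted p = 0.016), a call lost without control replicate 1 (-1.21) or 2 (-1.13). TYK2, its partner at the type I receptor, rose from 8.96 ± 5.27 to 25.9 ± 4.70 CPM, by 1.53 ± 0.50 on the log2 scale (edgeR adjusted p = 0.034). That call was lost when control replicate 1 (1.41) or 3 (1.51) or ZQ replicate 1 (1.33) or 2 (1.39) was left out, and with the offsets (0.61). IFNAR2 had 35 control counts and 10 ZQ counts and was not tested.

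Interferon genes themselves had few counts, and none of the 10 listed passed the filter for testing. IFNB1 had 5 control counts and 1 ZQ count, and IFNL1 had 8 and 4. IFNE, an epithelial type I interferon chosen after its values were seen, had the counts 17, 7 and 26 in control and 1, 0 and 0 in ZQ libraries. Scaled for depth it was 6.34-fold lower with ZQ, with a 95% exact counting interval of 1.09 to 255 that covers counting error only. Its CPM of 0.407 to 2.00 in control and 0 to 0.549 in ZQ libraries overlapped.

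Genes that sense nucleic acids or relay to interferon production had 4 of 14 lower and 0 higher, or 28.6% and 0%, against 19% and 19.3% of all tested genes. TBK1, the kinase that phosphorylates IRF3, was at 71.9, 57.3 and 72.1 CPM in control and at 7.13, 7.74 and 19.5 CPM in ZQ libraries, a change of -2.56 ± 0.42 log2 units (edgeR adjusted p = 0.0010) that held in all 18 alternatives. TANK, a scaffold of TBK1, fell with a change of -1.39 ± 0.33 log2 units (edgeR adjusted p = 0.0071), a call lost without control replicate 1 or 3 (-1.23 each) and with the offsets (-0.08). IFI16, a DNA sensor, fell with a change of -0.80 ± 0.20 (edgeR adjusted p = 0.010), which was 0.27 with the offsets and lost its call without control replicate 1 (-0.63) or 3 (-0.61). RNF135, a ligase that activates RIG-I, fell with a change of -2.08 ± 0.69 (edgeR adjusted p = 0.036). The RNF135 call ended when control replicate 1 (-1.89), 2 (-1.84) or 3 (-2.12) or ZQ replicate 1 (-1.76) was left out. No call was made for CGAS (log2 change -0.04), MAVS (0.45), IRF3 (0.71 ± 0.27, edgeR adjusted p = 0.063, called without ZQ replicate 1 at 0.77, and -0.31 with the offsets) or STING1. STING1 had 9 ZQ counts, all in replicate 3, against 534 in control (log2 change -2.83 ± 1.04, edgeR adjusted p = 0.053). Without that library it was at 0 in both remaining ZQ libraries and called lower. In all, 8 of 18 alternatives called STING1 lower, among them the offsets (-3.30).

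Among negative regulators, 1 of 11 rose (9.09%) and 2 fell (18.2%), neither share above the 19.3% and 19% of all tested genes. SOCS3, an inhibitor of JAK kinases, was at 4.72, 5.17 and 5.78 CPM in control and at 43.3, 9.19 and 21.8 CPM in ZQ libraries, and rose by 2.24 ± 0.58 on the log2 scale (edgeR adjusted p = 0.012). The SOCS3 call ended without ZQ replicate 1 (1.47) and with the offsets (1.50). SOCS1 had 37 control and 39 ZQ counts, 34 of the latter in replicate 2, and no call (3.05 ± 1.19, edgeR adjusted p = 0.067), while it was 3.53 and called without ZQ replicate 1, 0.74 without ZQ replicate 2 and 1.53 with the offsets. The phosphatase gene PTPN11 fell with a change of -1.62 ± 0.20 (edgeR adjusted p = 0.00026). PIAS1, a SUMO ligase that restrains interferon signalling, fell with a change of -1.37 ± 0.36 (edgeR adjusted p = 0.013), a call lost without control replicate 1 (-1.17) or 3 (-1.23) and with the offsets (-0.70).

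Of the tested interferon-induced genes outside the 41, 5 of 43 were higher (11.6%, background 19.3%) and 10 lower (23.3%, background 19%). Among those induced mainly by interferon gamma, 2 of 8 were higher (25%) and 1 lower (12.5%). GBP1, a GTPase that attacks intracellular bacteria and their vacuoles, was at 166, 115 and 171 CPM in control and at 25.2, 40.2 and 36.8 CPM in ZQ libraries, a change of -2.14 ± 0.26 log2 units (edgeR adjusted p = 0.00023). SLFN11, which blocks stressed replication forks, and the secreted glycoprotein gene LGALS3BP fell with changes of -2.62 ± 0.42 and -1.68 ± 0.24 (edgeR adjusted p = 0.00083 and 0.00056). The calls of GBP1, SLFN11 and LGALS3BP held in all 18 alternatives. LGALS3BP, with a GC content of 60.5%, was at -2.45 with the offsets. TYMP, thymidine phosphorylase, had 2 control and 21 ZQ counts and was called higher, a ratio of 82.8 with a 95% exact counting interval of 20.2 to 728, at 6.33 ZQ counts per kb, which is under the receptor percentile of 16.0. CIITA, with 13 control and 16 ZQ counts, PSMB9 (0.70 ± 0.25, edgeR adjusted p = 0.047) and WARS1 (-0.73 ± 0.25, edgeR adjusted p = 0.045) were called. The CIITA call ended without ZQ replicate 1 (2.97), 2 (3.46) or 3 (3.25) and with the offsets (2.03). The PSMB9 call was lost without control replicate 1 (0.92) or ZQ replicate 1 (0.64), 2 (0.64) or 3 (0.53) and with the offsets (-0.20), and that of WARS1 without any 1 library (-0.54 to -0.72) other than ZQ replicate 2, without which it was -1.18. EIF2AK2 (PKR), which halts translation on double-stranded RNA, and ADAR, which edits such RNA, had changes of -0.46 ± 0.27 and -0.11 ± 0.25 and no call (edgeR adjusted p = 0.20 and 0.76).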

How the data were processed

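The authors deposited raw read counts per gene for 3 control and 3 ZQ libraries of BEAS-2B cells. The submitters' processing notes list GRCh38 and Cufflinks 2.1.1 without a role. How reads were aligned, counted and assigned to strands is not stated (not given in the sources used here), which means that overlapping and antisense genes cannot be told apart. Symbols were matched by Ensembl ID, and positions, exon and transcript lengths, GC content and overlaps come from GENCODE release 29 (GRCh38).

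The test was the quasi-likelihood F-test of edgeR 4.0.16 (R 4.3.3), ZQ against control, after TMM scaling. Low genes were removed with filterByExpr at a minimum count of 10 and a minimum total of 15. P-values were adjusted by Benjamini-Hochberg over all 12994 tested genes, with a threshold of 0.05. An SE is the log2 change divided by the square root of F. CPM are TMM-scaled. Alternatives used DESeq2 1.42.0, limma 3.58.1, other scalings and filters, thinned controls, a replicate block, each library left out, and offsets per library from smooth curves of GC content and log length (mgcv 1.9.3). The fit was tested on simulated data with the same spread per gene in both groups and no trend with GC content. That setting does not cover the unequal spread of these groups.

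The 41 genes, the pathway lists and the alternatives were chosen with earlier results of these data known, apart from levels per kb of the longest coding transcript, added later. No set test was made, and lists are described by counts. Every member is named. In each pathway list the up to 4 genes with the smallest adjusted p past the threshold are named, with a set of key genes whatever their value. Some results are not reported here.

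Intervals and the 3-count floor cover counting error only. Floors were 0.174 to 0.231 CPM in control and 1.45 to 1.67 CPM in ZQ libraries. Replicates varied more with ZQ, with biological coefficients of variation of 0.265 for control and 0.522 for ZQ libraries.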

Additional observations from a re-analysis of the deposited data

How the results depend on the processing

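The direction of the members' median log2 change (-0.59) held in all 18 alternatives, at -0.16 under upper-quartile scaling, -0.97 by library totals, -0.84 without a low-count filter, -0.40 with at least 5 CPM in 3 libraries, -0.45 with GC and length offsets, -0.39 with thinned controls and -0.74 to -0.41 with a library left out. The median of all tested genes moved with scaling, from 0.03 to 0.48 under upper-quartile scaling, -0.35 by library totals and 1.75 without a filter, so the members' values are read against it. The 9 members called lower became 14 by library totals and 14 without a filter, and 5 to 15 with a library left out. The 6 called higher became 6 to 7 with a library left out. Over all tested genes the 4978 calls became 11603 without a filter and 2815 to 5407 with a library left out. The 2506 higher became 3767 under upper-quartile scaling, 7957 without a filter and 1389 to 2536 with a library left out, and the 2472 lower became 1611 under upper-quartile scaling and 1426 to 2871 with a library left out. By library totals the split was 1785 higher and 3503 lower. For the pathway lists, the 9 higher became 19 under upper-quartile scaling, 3 with offsets and 3 to 7 with a library left out, and the 22 lower became 11 under upper-quartile scaling, 34 without a filter, 14 with thinned controls and 10 to 26 with a library left out. Fewer genes passed the filter where a control library was left out or controls were thinned. The share called could fall as well: without control replicate 1 it was 2815 of 11035 tested genes, against 4978 of 12994. The cause of these shifts was not tested.

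Deviations of same-numbered libraries correlated at 0.00944, 0.0371 and 0.0316, and those of the other pairs at -0.0348 to 0.00858. The same-numbered values were the highest but small, and they cannot tell whether replicate numbers mark a shared batch. With the replicate block 4404 genes were called, 6 members higher and 8 lower, with a median of -0.66, and the calls of USP18 (-1.69), EPSTI1, RNF135 and UBA7 ended. With the block and the GC and length offsets together, 3 members were higher and 6 lower, and 1 pathway gene was higher. Among the named genes with a call, values reversed with the offsets to -0.38 for ISG15, 0.27 for IFI16 and -0.20 for PSMB9, and with the block added -0.34, 0.26 and -0.17. Among members without a call, the sign also changed with the offsets for IFITM2 (-0.45), IFI35 (-0.60), DDX60 (0.37), OAS3 (-0.14), IRF1 (-0.10), IRF7 (-1.24), HERC6 (0.12), RSAD2 (0.01) and XAF1 (0.68), and among named pathway genes without a call for IRF3 (-0.31), MAVS (-0.38), CGAS (0.65), UBE2L6 (-0.18) and EIF2AK2 (0.22). Depth limits the ZQ group most, where 25 of 41 members had under 100 counts over 3 libraries.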
